A study of Mus musculus with 6 samples.

Results

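The collagen genes of the developing mouse kidney were followed in kidneys with a Hedgehog pathway defect. They were taken by name, as every gene of the deposited table called Col, a number, a and a number, and 42 of its 22394 genes qualified. By the type of their protein, 8 were counted as fibrillar, 9 as basement membrane, 6 as cartilage collagens and 19 as others. The mutants were 3 Foxd1Cre;Ptch1 (flox/-) mice and the controls were 3 littermates with Ptch1 (flox/+), all taken as whole paired kidneys at E13.5. Foxd1Cre drives Cre recombinase in the progenitors of the renal stroma and their descendants, so both copies of Ptch1 are lost there by design. Every other cell of a mutant carries 1 null allele of Ptch1, every cell of a control carries 2 working ones, and Cre is named in the mutants only. The floxed allele is common to both groups. Where the RNA of a whole kidney differs, a change in the number of cells of a type and a change in RNA per cell cannot be told apart.

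Collagens are secreted as a triple helix of 3 chains, and the chains that make up 1 helix come from 1, 2 or 3 genes. Fibrillar types I, III and V form the rope-like fibrils of connective tissue and, in the kidney, are made mainly by stromal cells. Type IV is the sheet-forming collagen of basement membranes: the chains α1 and α2 are in nearly all of them, while α3, α4 and α5 form the network of the mature glomerular filter and α5 and α6 join α1 and α2 in others. Ptch1 holds the Hedgehog pathway off until a ligand binds it, and the comparison asks what changes when it is removed from the stromal lineage.

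The libraries held 21015151, 13261588 and 47847925 reads in mutants 1 to 3, and 21644399, 24962204 and 25416896 reads in controls 1 to 3. Ptch1 itself, also a target of the pathway it restrains, had 23.5, 35.8 and 29.8 FPKM in mutants, against 8.26, 7.91 and 7.60 FPKM in controls. FPKM is the level of a gene's RNA per length of the gene and per depth of the library. This value counts reads over the whole gene and does not check the deletion. Control 2 stood apart, with 0.367% of its reads from mitochondrial genes, against 1.21% to 2.12% in the other 5 libraries. It was the lowest of the 6 libraries in 35 of the 41 collagen genes tested, against 28.0% of all genes tested, so results that rest on it are given with and without it. The labels give no sex. The Y-linked gene Ddx3y had 13.9 to 16.2 FPKM in mutants, against 17.8 FPKM in control 2 and 0.0598 and 0.0177 FPKM in controls 1 and 3. Among the controls, only control 2 was thus like the mutants in this marker. In every comparison without control 2, genotype and sex cannot be told apart. With all 6 libraries they are partly mixed, so neither comparison is free of this limit.

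The type IV genes lie in pairs that start back to back, and the promoters of the pairs that the results turn on are shown first. The start of each gene comes with 250 bases before it and 50 after it, 5′ to 3′ on the gene's own strand, from RefSeq on build GRCm38.p6. Capitals mark CCAAT and GGGCGG (the GC box, bound by factors such as Sp1) on either strand, so ATTGG and CCGCCC are also in capitals. The Col4a1 window (chr8:11312777-11313076, minus strand) and the Col4a2 window (chr8:11312555-11312854, plus strand) share 78 bases, since the starts are 21 bases apart. The Col4a5 window (chrX:141475169-141475468, plus strand) and the Col4a6 window (chrX:141474027-141474326, minus strand) share none, with 1343 bases between the starts.
Col4a1: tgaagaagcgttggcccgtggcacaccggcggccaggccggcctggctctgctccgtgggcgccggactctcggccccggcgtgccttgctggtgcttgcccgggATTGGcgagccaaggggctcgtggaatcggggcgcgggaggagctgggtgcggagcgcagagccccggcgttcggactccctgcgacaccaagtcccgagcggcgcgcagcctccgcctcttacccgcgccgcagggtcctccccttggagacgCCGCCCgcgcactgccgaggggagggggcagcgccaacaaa
Col4a2: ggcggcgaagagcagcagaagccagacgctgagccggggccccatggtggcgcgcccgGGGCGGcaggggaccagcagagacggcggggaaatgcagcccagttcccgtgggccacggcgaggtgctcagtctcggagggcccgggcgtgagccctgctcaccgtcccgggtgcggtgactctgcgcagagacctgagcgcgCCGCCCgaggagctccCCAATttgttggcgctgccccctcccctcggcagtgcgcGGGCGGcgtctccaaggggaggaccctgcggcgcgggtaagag
Col4a5: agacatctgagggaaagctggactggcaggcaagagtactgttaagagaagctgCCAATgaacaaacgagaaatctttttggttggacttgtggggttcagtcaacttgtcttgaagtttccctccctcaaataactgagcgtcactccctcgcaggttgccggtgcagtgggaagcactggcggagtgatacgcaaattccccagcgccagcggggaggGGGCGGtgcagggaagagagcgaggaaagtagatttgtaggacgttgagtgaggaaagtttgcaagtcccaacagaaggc
Col4a6: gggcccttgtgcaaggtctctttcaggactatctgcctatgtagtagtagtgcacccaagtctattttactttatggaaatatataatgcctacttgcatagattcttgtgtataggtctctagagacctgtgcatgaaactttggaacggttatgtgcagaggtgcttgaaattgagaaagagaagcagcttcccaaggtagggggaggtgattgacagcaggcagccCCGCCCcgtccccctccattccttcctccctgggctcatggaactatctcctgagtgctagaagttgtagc
The Col4a1 and Col4a2 windows are 74.0% and 73.7% G and C, against 52.7% and 48.3% for Col4a5 and Col4a6. A RefSeq window was found for 33 of the 42 genes. On either strand, CCAAT was in a window of 13 of them, against 37.4% of the windows of all genes, and GGGCGG was in a window of 22, against 35.7%. TATAAA was in a window of 4 of them, against 13.6% of all windows. The E-box CANNTG was in a window of 19, against 72.3%, and the motif bound by the Hedgehog factors of the GLI family, searched as GACCACCCA, was in none, against 0.253%. These matches describe letters in short windows and not binding.

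Most collagen genes had more RNA in mutants than in controls, and few passed the test. Of the 41 tested, 2 rose in mutants, the transmembrane collagen gene Col13a1 and the type VI chain Col6a4, and none fell. The test was limma on log2 normalized counts, with Benjamini-Hochberg adjustment over all 16933 genes tested and a call at an adjusted p under 0.05. It called 0.219% of all genes higher, 0.0886% lower and 0.307% in either direction. At an unadjusted p under 0.05, 17 of the 41 were higher, against 5.26% of all genes, and 0 were lower, against 4.37%. The estimated change was above 0 in 36 of 41, against 49.1% of all genes, and its median was 0.65 on the log2 scale, against -0.01 over all genes. Every mutant library lay above every control library in 12 of 41, against 7.57% of all genes, and below in 0, against 9.09%. No member passed the filter on low values through 1 group alone.

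Without control 2, where genotype and sex cannot be told apart, the same list looked less one-sided. The median estimate was 0.28, against -0.02 over all genes, and 30 of 41 estimates were above 0, against 47.1%. By limma with Benjamini-Hochberg adjustment, 3 genes were then called higher (Col13a1, Col4a4 and Col6a4) and 1 lower (Col4a5). Over all genes, 0.658% were called higher, 0.233% lower and 0.892% in either direction. Unadjusted p-values under 0.05 went to 12 higher and 4 lower, against 6.47% and 3.51% of all genes. The groups did not overlap in 12 higher and 5 lower, against 12.9% and 13.4%.

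**Figure D1:**
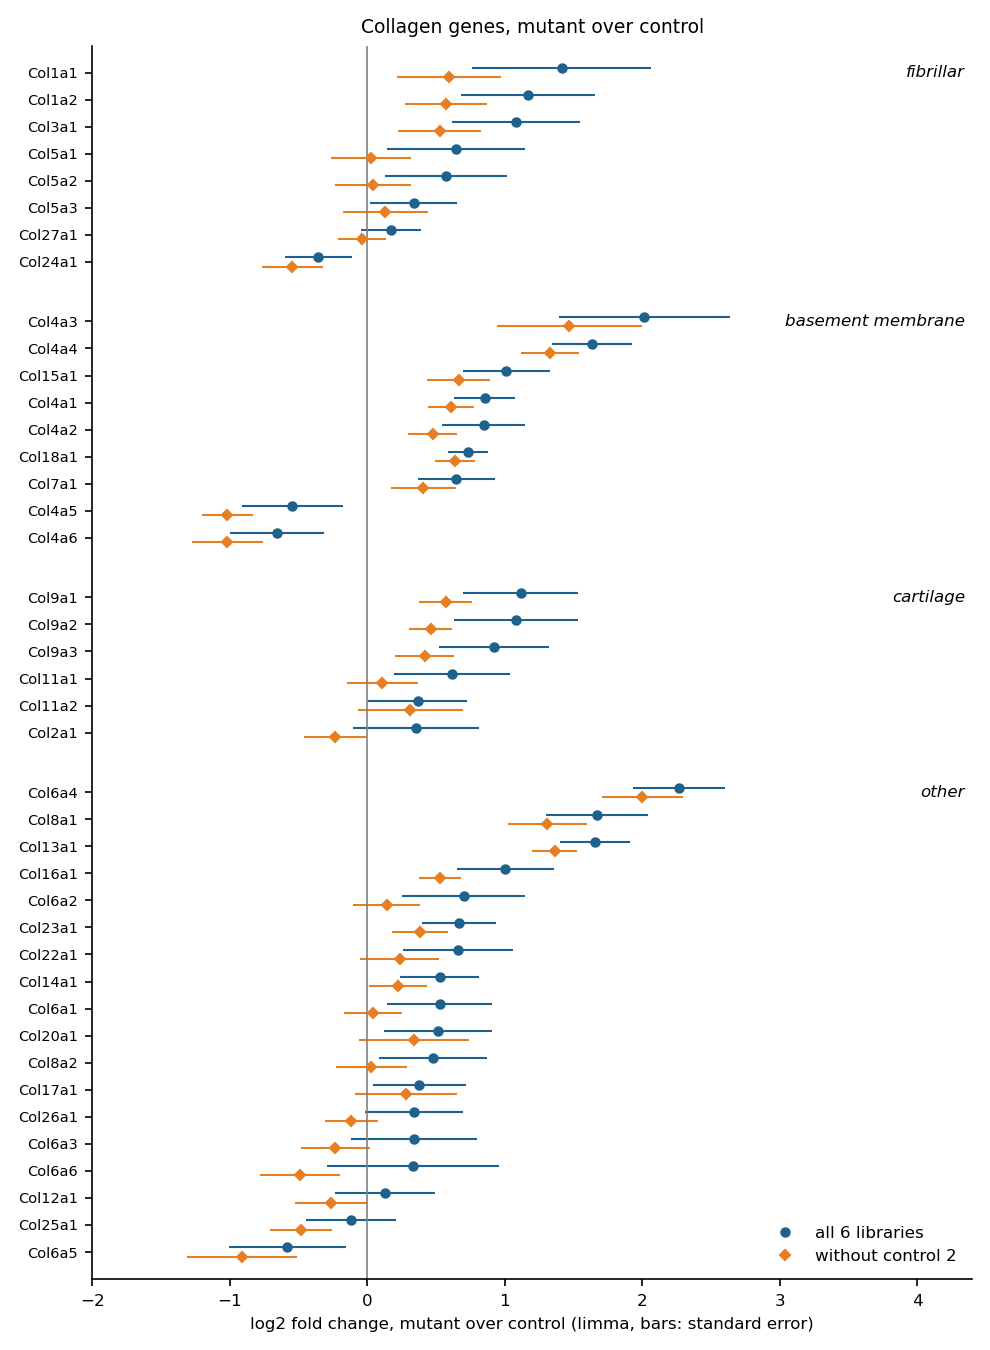
Log2 fold change of each of the 41 tested collagen genes, mutant over control, from limma with its standard error, with all 6 libraries (circles) and without control 2 (diamonds). With all libraries 36 circles lie above 0, and without control 2 30 diamonds do. Col6a4 lies furthest right in both, followed by Col4a3, with Col13a1, Col8a1 and Col4a4 close to each other. Col4a5, Col4a6 and Col6a5 lie furthest left.

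Levels ran over more than 4 orders of magnitude, and the fibrillar chains led. Averaged over the 6 libraries, Col1a1 had 409 FPKM, Col3a1 had 303, Col1a2 had 272 and Col26a1 had 116. Another 30 genes averaged between 1 and 100 FPKM, and 8 averaged under 1. Col1a1, Col1a2 and Col3a1 together made up 58.0%, 63.3% and 67.6% of all collagen FPKM in mutants, against 55.3%, 44.1% and 58.9% in controls. The share was lowest in control 2 and highest in mutant 3, and controls 1 and 3 fell within or just below the lower end of the mutants.

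Collagen reads were 0.833%, 1.11% and 1.57% of all reads in mutants, against 0.780%, 0.269% and 0.847% in controls. Their 95% Wilson intervals are at most 0.0113 percentage points wide and cover counting error only. The groups overlapped by 1 pair of libraries, mutant 1 and control 3. Mutant 3 was the highest of the 6 libraries in 20 of 41 collagen genes, against 11.9% of all genes. Within the controls the highest library was a median 2.71 times the lowest, and within the mutants 1.68 times, and the control spread was the wider in 38 of 41 genes. Controls 1 and 3 were close to each other, with a median ratio of 0.913.

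**Figure D2:**
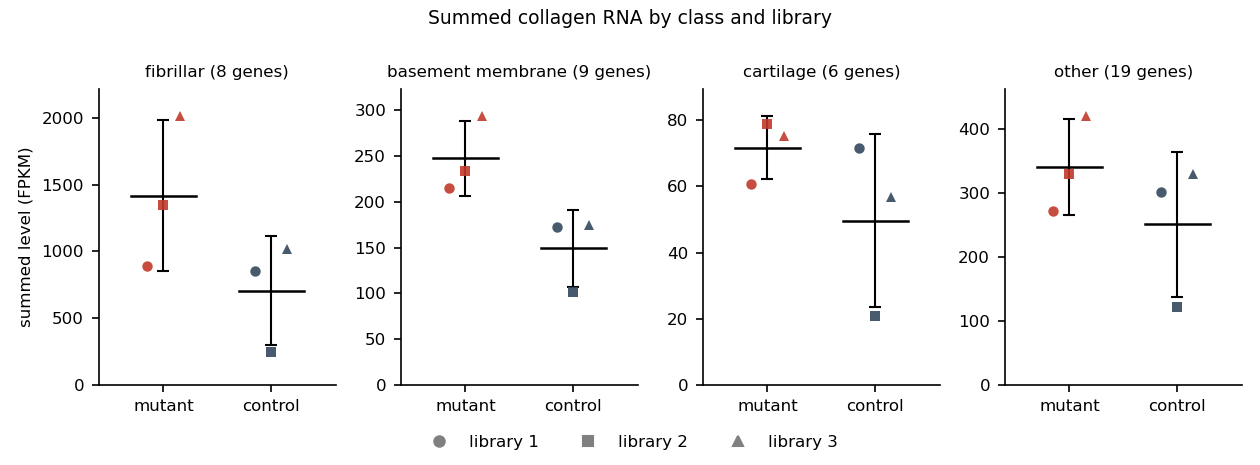
Summed FPKM of the collagen genes of each class in each library, with mutants left of controls, group means as bars and SD as whiskers (n = 3). The basement membrane sums do not overlap between the groups, with 215 to 294 FPKM in mutants and 101 to 174 in controls, and the other 3 classes do.

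The basement membrane collagens were the one class of the 4 whose summed level separated the groups. It was 215, 234 and 294 FPKM in mutants, against 173, 101 and 174 FPKM in controls, a ratio of means of 1.66, or 1.43 without control 2. Of the 9 genes, 7 had an estimate above 0, against 49.1% of all genes, and 6 of those did not overlap between groups, against 7.57%. None was called by limma with all libraries, against 0.307% of all genes. The 2 with an estimate below 0 were the X-linked pair Col4a5 and Col4a6. Smaller groups inside the class of others separated as well. Transmembrane collagens summed to 33.8, 39.2 and 38.2 FPKM in mutants, against 24.0, 12.1 and 21.5 FPKM in controls. Fibril-associated collagens summed to 44.5, 46.7 and 63.8 FPKM in mutants, against 40.3, 17.5 and 42.4 FPKM in controls. The sums of types VI and VIII overlapped, as did Col26a1.

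Col4a1 (chr8:11198423-11312826), the α1 chain found in nearly every basement membrane, had 96.3, 103 and 126 FPKM in mutants, against 70.1, 42.5 and 70.8 FPKM in controls. Every mutant was above every control, and the mean was 108 ± 15.3 FPKM in mutants and 61.1 ± 16.1 FPKM in controls (SD, n = 3 each). Limma estimated a log2 fold change of 0.86 ± 0.22 (standard error), adjusted p = 0.249. Its partner in the same helix, Col4a2 (chr8:11312805-11449287), had 54.1, 60.5 and 80.2 FPKM in mutants, against 46.6, 21.3 and 45.4 FPKM in controls. These groups did not overlap either, with a log2 fold change of 0.85 at an adjusted p of 0.446 by limma. Without control 2 the estimates were 0.61 and 0.48, with adjusted p of 0.185 and 0.399.

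The helix made of these chains holds 2 of α1 to 1 of α2, and the RNA of the pair kept near that proportion in both groups. Col4a1 was 1.78, 1.71 and 1.57 times Col4a2 in mutants, against 1.5, 2.00 and 1.56 times in controls. The groups overlapped, with means of 1.68 ± 0.108 in mutants and 1.69 ± 0.271 in controls (SD, n = 3 each). Exons of the genes share 22 bases on opposite strands. No source used here states whether the authors assigned reads by strand, so reads of such overlaps cannot be told apart.

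Col4a3 (chr1:82586921-82722059) and Col4a4 (chr1:82448423-82586849), whose chains enter the glomerular filter as it matures, were rare at this stage. Col4a4 had 0.775, 0.961 and 0.887 FPKM in mutants, against 0.326, 0.182 and 0.362 FPKM in controls, about 3.02 times as much in mutants. Its lowest mutant was above its highest control by more than the spread within either group. By limma the log2 fold change came to 1.63 ± 0.29 (standard error), adjusted p = 0.0797, and without control 2 it was 1.33 with an adjusted p of 0.0261 and so called by limma.

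Col4a3 had 0.213, 0.114 and 0.318 FPKM in mutants, from 40, 13 and 130 reads, against 0.107, 0.0187 and 0.0428 FPKM in controls, from 20, 4 and 9 reads. Mutant 2 was barely above control 1. On the log2 scale limma put the difference at 2.02 ± 0.62 (standard error), adjusted p = 0.37, and 563 bases of its exons lie opposite the transcript C430014B12Rik. Summed over 5 podocyte markers, the cells that make the α3, α4 and α5 network in the adult, the level was 22.4, 21.5 and 28.1 FPKM in mutants and 14.2, 37.8 and 19.6 FPKM in controls. These sums overlapped, with control 2 the highest of the 6, while control 2 was the lowest for both genes.

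Col4a5 (chrX:141475385-141689234) and Col4a6 (chrX:141165403-141474076) went the other way. Col4a5 had 5.31, 5.92 and 8.39 FPKM in mutants, against 13.2, 4.87 and 12.8 FPKM in controls. Controls 1 and 3 were above every mutant and control 2 was below every mutant. With all libraries limma gave a log2 fold change of -0.54 with a standard error of 0.37 (adjusted p = 0.619). Without control 2 it was -1.02 with an adjusted p of 0.0466, and Col4a5 fell in mutants by that fit.

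Col4a6 showed the same order of groups at a lower level. It had 0.788, 0.787 and 1.32 FPKM in mutants, against 1.80, 0.894 and 2.01 FPKM in controls, with control 2 between mutants 2 and 3. The log2 fold change was -0.66 with an adjusted p of 0.563, and -1.02 with an adjusted p of 0.145 without control 2, by limma. Col4a5 was 6.74, 7.53 and 6.35 times Col4a6 in mutants, against 7.33, 5.45 and 6.36 times in controls, and these ratios overlapped.

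The level of Col4a5 relative to Col4a1 separated the groups in all 6 libraries. It was 0.0552, 0.0574 and 0.0669 in mutants, against 0.188, 0.115 and 0.181 in controls, control 2 included. A ratio within a library does not depend on the scaling of that library, and it shows unequal change of 2 genes and not which of them moved. Col4a5, like Col4a6 but not Col4a1, is X-linked, and Xist had 0.103, 0.206 and 6.19 FPKM in mutants, against 72.9, 0.0471 and 53.3 FPKM in controls. Mutant 3 thus held some Xist beside Ddx3y at 13.9 FPKM, unlike mutants 1 and 2, and the origin of its Xist was not tested. In the comparison without control 2, the genotype and the sex difference marked by Xist and Ddx3y cannot be told apart. Control 2, with Ddx3y like that of the mutants, had the lowest Col4a5 level of the 6 libraries, and a ratio to Col4a1 above all mutants.

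**Figure D3:**
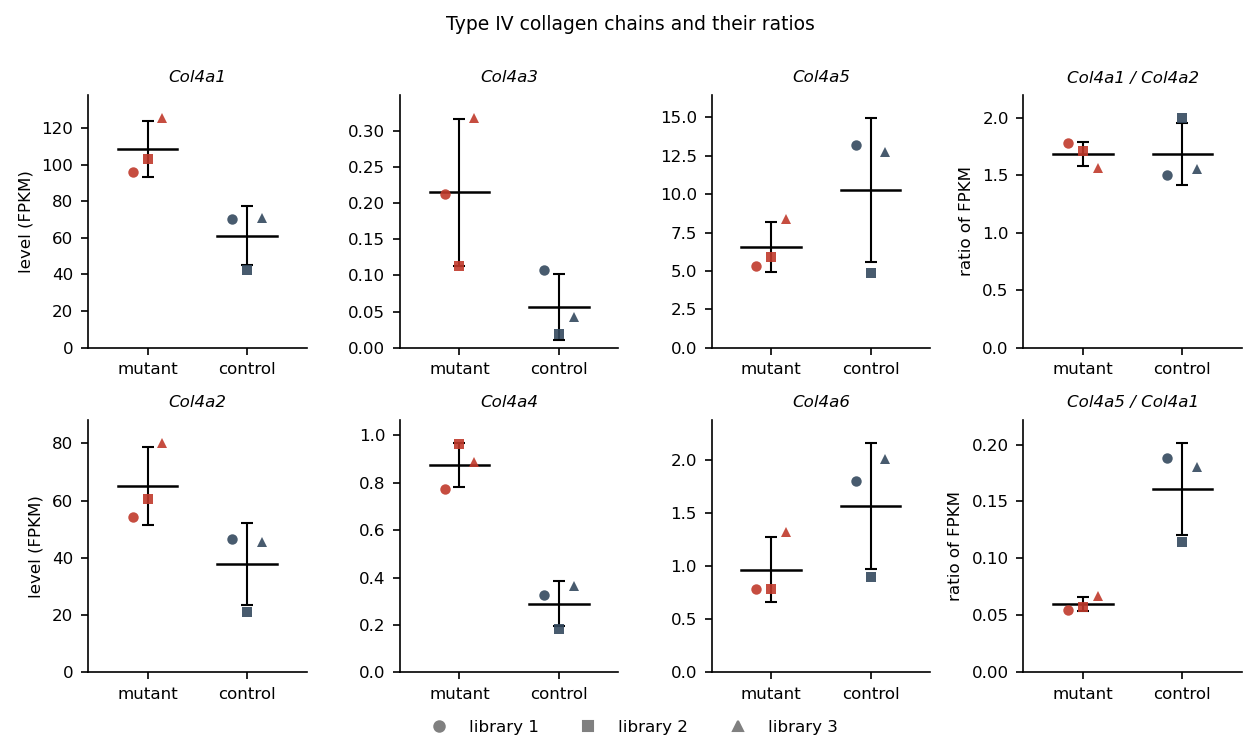
FPKM of the 6 type IV collagen genes and 2 ratios of FPKM in each library, mutants left of controls, with group means as bars and SD as whiskers (n = 3). Col4a1 to Col4a4 lie higher in all mutants than in all controls, the ratio of Col4a1 to Col4a2 overlaps between the groups, and the ratio of Col4a5 to Col4a1 runs from 0.0552 to 0.0669 in mutants and from 0.115 to 0.188 in controls.

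The genes of types XV and XVIII, which carry sugar side chains and lie where basement membranes meet the tissue around vessels and tubules, were above all controls in all mutants. Col18a1 (chr10:77052178-77166548), the source of the endostatin fragment, had 46.6, 46.6 and 57.9 FPKM in mutants, against 30.7, 26.6 and 33.6 FPKM in controls. Control 2 was close to the other controls here, and the spread within groups was small. Limma estimated a log2 fold change of 0.73 ± 0.14 (standard error), adjusted p = 0.106, and 0.64 with an adjusted p of 0.0962 without control 2.

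Col15a1 had 9.39, 14.5 and 17.7 FPKM in mutants, against 8.45, 4.10 and 8.43 FPKM in controls. Mutant 1 lay just above controls 1 and 3. The log2 fold change was 1.01 with an adjusted p of 0.384 by limma. Col7a1, which forms the anchoring fibrils under skin epithelium, had 1.33 to 1.65 FPKM in mutants and 0.664 to 1.43 FPKM in controls, and the groups overlapped.

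Endothelial markers moved with these genes. All 10 markers on the list had an estimate above 0, against 49.1% of all genes. Limma with Benjamini-Hochberg adjustment called 4 of them higher, against 0.219% of all genes, and their summed level was 320, 322 and 380 FPKM in mutants, against 183, 168 and 183 FPKM in controls. Emcn, a surface protein of capillary endothelium, had 22.3, 21.7 and 25.8 FPKM in mutants, against 8.39, 10.3 and 9.47 FPKM in controls. Unlike the collagens, the endothelial sum in control 2 was near that of the other controls. The part of the endothelium in the basement membrane collagen levels was not tested.

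No gene of the fibrillar collagens, the most abundant class, was called by limma, against 0.307% of all genes. Their summed level overlapped between groups. It was 893, 1348 and 2014 FPKM in mutants, against 852, 243 and 1020 FPKM in controls, with mutant 1 between controls 1 and 3. The ratio of means was 2.01, or 1.52 without control 2. Of the 8 genes, 7 had an estimate above 0, against 49.1% of all genes, and the median estimate was 0.61. Without control 2 the median was 0.09 with 6 above 0, against 47.1%.

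Col1a1 (chr11:94936224-94953042), the α1 chain of type I collagen and of most tissue fibrils, had 319, 523 and 856 FPKM in mutants, against 328, 63.0 and 365 FPKM in controls. Mutant 1 was below controls 1 and 3, so the groups overlapped. By limma the log2 fold change came to 1.41 ± 0.65 (standard error), adjusted p = 0.536, and 0.60 without control 2. Its partner chain gene Col1a2 had 247, 337 and 509 FPKM in mutants, against 214, 67.5 and 256 FPKM in controls, with a log2 fold change of 1.17 at an adjusted p of 0.502.

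Col3a1, whose chain forms the thin fibrils of soft tissue and is often found with type I, had 270, 399 and 529 FPKM in mutants, against 230, 83.8 and 309 FPKM in controls. Here too mutant 1 lay within the controls, and limma gave a log2 fold change of 1.08 with an adjusted p of 0.514. The 2 chains of type I kept similar proportions, with Col1a1 at 1.29, 1.55 and 1.68 times Col1a2 in mutants, against 1.53, 0.933 and 1.43 times in controls. Control 2 was the only library with less Col1a1 than Col1a2 per length.

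The chains of type V, which sit inside type I fibrils and limit their width, spread over the range of controls 1 and 3 in the mutants. Col5a1 had 25.7, 43.6 and 59.6 FPKM in mutants, against 38.1, 11.0 and 41.6 FPKM in controls. Col5a2 had 22.8, 36.3 and 48.7 FPKM in mutants, against 28.8, 11.0 and 38.7 FPKM in controls. In both genes mutant 1 was below controls 1 and 3 and mutant 3 above them, and without control 2 limma's estimates were 0.03 and 0.04. Col5a3, Col24a1 and Col27a1 had between 0.753 and 8.43 FPKM in mutants and between 0.841 and 9.91 FPKM in controls, and each overlapped. Markers of renal stroma, the main source of these fibrils, overlapped in their sum. It was 459, 513 and 523 FPKM in mutants, against 597, 423 and 634 FPKM in controls. Limma called 0 of the 7, against 0.307% of all genes. The sum hides genes that differed in direction. Pdgfra, a growth factor receptor of stromal cells, had 42.3, 55.3 and 54.2 FPKM in mutants, against 35.8, 19.4 and 33.1 FPKM in controls, and Pdgfrb and Tcf21 were also higher in every mutant. Aldh1a2, which makes retinoic acid, had 166, 189 and 198 FPKM in mutants, against 285, 229 and 323 FPKM in controls, lower in every mutant. Foxd1 had 34.7, 58.6 and 54.8 FPKM in mutants, against 75.8, 31.5 and 82.4 FPKM in controls. It overlapped, as did Meis1 and Tbx18. The part of the stroma in the fibrillar levels was not tested.

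The cartilage collagens were expressed at modest levels and overlapped in sum, with 60.8, 78.9 and 75.3 FPKM in mutants, against 71.6, 20.8 and 56.7 FPKM in controls. The ratio of means was 1.44, or 1.12 without control 2. Within the class, 2 of the 3 type IX genes separated the groups and the type II gene did not. All 6 genes had an estimate above 0, against 49.1% of all genes. None was called by limma, against 0.307% of all genes.

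Col2a1 (chr15:97975602-98004695), the fibril collagen of cartilage, had 20.5, 22.8 and 26.8 FPKM in mutants, against 36.5, 7.99 and 20.4 FPKM in controls. The mutants lay inside the wide range of the controls, and limma gave a log2 fold change of 0.36 with an adjusted p of 0.774. The type IX chains, which coat type II fibrils, kept near a fixed proportion to each other. Col9a1 had 11.9, 19.0 and 14.6 FPKM in mutants, against 9.18, 3.23 and 11.0 FPKM in controls, and Col9a2 had 13.9, 18.4 and 17.3 FPKM in mutants, against 11.1, 3.26 and 12.8 FPKM in controls.

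In both type IX genes all mutants were above all controls, with log2 fold changes of 1.12 and 1.08 and adjusted p of 0.464 and 0.503 by limma. Without control 2 these were 0.57 and 0.46. Col9a3, the third chain, had 4.56, 7.36 and 5.31 FPKM in mutants, against 3.88, 1.47 and 4.57 FPKM in controls, with mutant 1 just below control 3. Col9a1 was 0.86, 1.03 and 0.844 times Col9a2 in mutants, against 0.828, 0.989 and 0.856 times in controls. Col11a1, a chain of the core of cartilage fibrils, had 4.26, 7.50 and 8.61 FPKM in mutants, against 6.24, 2.09 and 5.82 FPKM in controls, and Col11a2 overlapped as well.

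Markers of cartilage were low apart from Sox9 and Hapln1. Of 13 listed markers 11 were in the table and 7 were tested, and Acan, the main proteoglycan of cartilage, had 0.0805, 0 and 0.0654 FPKM in mutants, against 0.00623, 0.0542 and 0.0111 FPKM in controls. Comp, Chad and Matn3 were at most 0.149 FPKM in every library, Matn1, Cnmd and Epyc at most 0.71 FPKM, and Sox5 and Sox6 at most 1.12 FPKM. Hapln1, which links the proteoglycans of cartilage to hyaluronan, had 1.59, 3.71 and 3.83 FPKM in mutants, against 3.69, 2.57 and 3.91 FPKM in controls, a level near that of Col9a3, and the groups overlapped. The sum over the list was 36.9, 37.5 and 40.2 FPKM in mutants, against 32.1, 18.5 and 27.1 FPKM in controls. Most of it was Sox9, a transcription factor that the ureteric bud and early nephron also express, with 32.6, 31.1 and 33.2 FPKM in mutants, against 25.6, 13.0 and 20.3 FPKM in controls. The part of cartilage cells in the levels of these collagens was not tested.

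The 2 genes that rose in mutants were both among the other collagens. Col13a1 (chr10:61838236-61979108) encodes a collagen that spans the cell membrane and is known from cell adhesion sites and the nerve-muscle junction. It had 21.3, 17.8 and 19.7 FPKM in mutants, against 8.94, 4.12 and 6.44 FPKM in controls, a mean of 19.6 ± 1.71 FPKM in mutants and 6.50 ± 2.41 FPKM in controls (SD, n = 3 each). The mutants were tightly grouped at 3.02 times the controls, and the lowest mutant was well above the highest control. On the log2 scale limma put the difference at 1.66 ± 0.25 (standard error), adjusted p = 0.0453, and 1.36 with an adjusted p of 0.0072 without control 2.

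The call for Col13a1 lay near its threshold. Leaving out mutant 1, 2 or 3 gave adjusted p of 0.21, 0.201 and 0.199, leaving out control 3 gave 0.175 and leaving out control 1 gave 0.0356, while the log2 fold change stayed between 1.36 and 1.92 over these 6 fits. Skeletal muscle markers, of tissue that also expresses Col13a1, summed to 48.1, 67.8 and 50.5 FPKM in mutants, against 96.7, 94.6 and 120 FPKM in controls. Of the 9 muscle markers tested, 4 fell by limma, against 0.0886% of all genes, and the summed levels did not overlap. Des made up most of the mutant sums, with 36.1, 47.6 and 38.9 FPKM in mutants, against 52.2, 28.3 and 46.7 FPKM in controls. The groups overlapped in Des. The actin gene of muscle fibres, Acta1, had 0.126, 0.310 and 0.188 FPKM in mutants, against 5.13, 14.3 and 8.56 FPKM in controls. The part of muscle in the level of Col13a1 was not tested.

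Col6a4 (chr9:105989454-106096783), one of the later-found chains of the beaded filament collagen VI, had 4.36, 2.10 and 2.30 FPKM in mutants, against 0.659, 0.390 and 0.712 FPKM in controls. The mean was 2.92 ± 1.25 FPKM in mutants and 0.587 ± 0.173 FPKM in controls (SD, n = 3 each), a ratio of 4.97, with mutant 1 the highest. Limma estimated a log2 fold change of 2.27 ± 0.33 (standard error), adjusted p = 0.038, and 2.00 with an adjusted p of 0.0167 without control 2. Leaving out mutant 1, 2 or 3 gave adjusted p of 0.121, 0.119 and 0.148, and leaving out control 1 or 3 gave 0.108 and 0.109, with log2 fold changes between 1.94 and 2.47. Exons of Col6a4 share 162 bases with the antisense gene Gm47575 and 127 with Gm36993.

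The neighbouring type VI genes did not share this pattern. Col6a5 and Col6a6 lie next to Col6a4 on chromosome 9 on the same strand, with 28810 and 27917 bases between successive genes. Col6a5 had 0.0638, 0.0885 and 0.131 FPKM in mutants, against 0.173, 0.0859 and 0.175 FPKM in controls, and Col6a6 had 3.44, 5.90 and 7.85 FPKM in mutants, against 6.87, 1.37 and 8.42 FPKM in controls. Both overlapped, and limma gave log2 fold changes of -0.58 and 0.33 with adjusted p of 0.631 and 0.85. The difference between Col6a4 and its neighbours was not tested.

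The common type VI chains, which link cells to the fibrils around them, overlapped between groups. Col6a1 had 35.5, 39.5 and 59.8 FPKM in mutants, against 39.3, 15.6 and 45.9 FPKM in controls. Col6a2 had 32.0, 32.5 and 58.1 FPKM in mutants, against 32.9, 11.1 and 38.5 FPKM in controls. In both genes mutants 1 and 2 were near or below controls 1 and 3, and only mutant 3 was above both. Col6a3 had 7.78, 8.62 and 15.3 FPKM in mutants, against 11.1, 3.61 and 12.6 FPKM in controls. Limma's log2 fold changes were 0.53, 0.70 and 0.34 with all libraries, and 0.04, 0.14 and -0.23 without control 2. The ratio of Col6a1 to Col6a2 was 1.11, 1.22 and 1.03 in mutants, against 1.19, 1.41 and 1.19 in controls.

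Type VIII forms hexagonal networks in vessel walls and under endothelium, and its 2 chains were expressed unequally. Col8a1 (chr16:57624258-57754737) had 1.32, 1.33 and 1.29 FPKM in mutants, against 0.718, 0.242 and 0.382 FPKM in controls. The mutants were almost equal and all above the controls, with a log2 fold change of 1.67 with a standard error of 0.37 (adjusted p = 0.151) by limma. Col8a2 was far more abundant, with 13.0, 16.8 and 26.9 FPKM in mutants, against 16.0, 6.95 and 19.5 FPKM in controls, and overlapped. The ratio of Col8a1 to Col8a2 was 0.102, 0.0791 and 0.048 in mutants, against 0.0448, 0.0348 and 0.0196 in controls, higher in every mutant though mutant 3 was close to control 1.

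Col16a1, a fibril-associated collagen of connective tissue, had 26.6, 30.7 and 36.6 FPKM in mutants, against 22.5, 8.0 and 20.6 FPKM in controls. All mutants were above all controls, with a log2 fold change of 1.01 at an adjusted p of 0.444 by limma. Col23a1, like Col13a1 a transmembrane collagen, had 10.01, 17.1 and 14.6 FPKM in mutants, against 10.09, 5.77 and 10.7 FPKM in controls, and mutant 1 lay below controls 1 and 3. Col14a1, which binds the surface of type I fibrils, had 10.6, 8.22 and 14.1 FPKM in mutants, against 8.23, 4.87 and 10.3 FPKM in controls.

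Both of these overlapped, with adjusted p of 0.49 and 0.568 by limma. Col26a1, the most abundant of the other collagens, had 95, 137 and 146 FPKM in mutants, against 129, 51.8 and 140 FPKM in controls, and its log2 fold change of 0.34 became -0.11 without control 2. The other tested members of this class, Col12a1, Col17a1, Col20a1, Col22a1 and Col25a1, had adjusted p between 0.592 and 0.906, and all overlapped. Col19a1 was too rare to test, with 0, 0 and 1 reads in mutants and 12, 2 and 9 reads in controls.

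**Figure D4:**
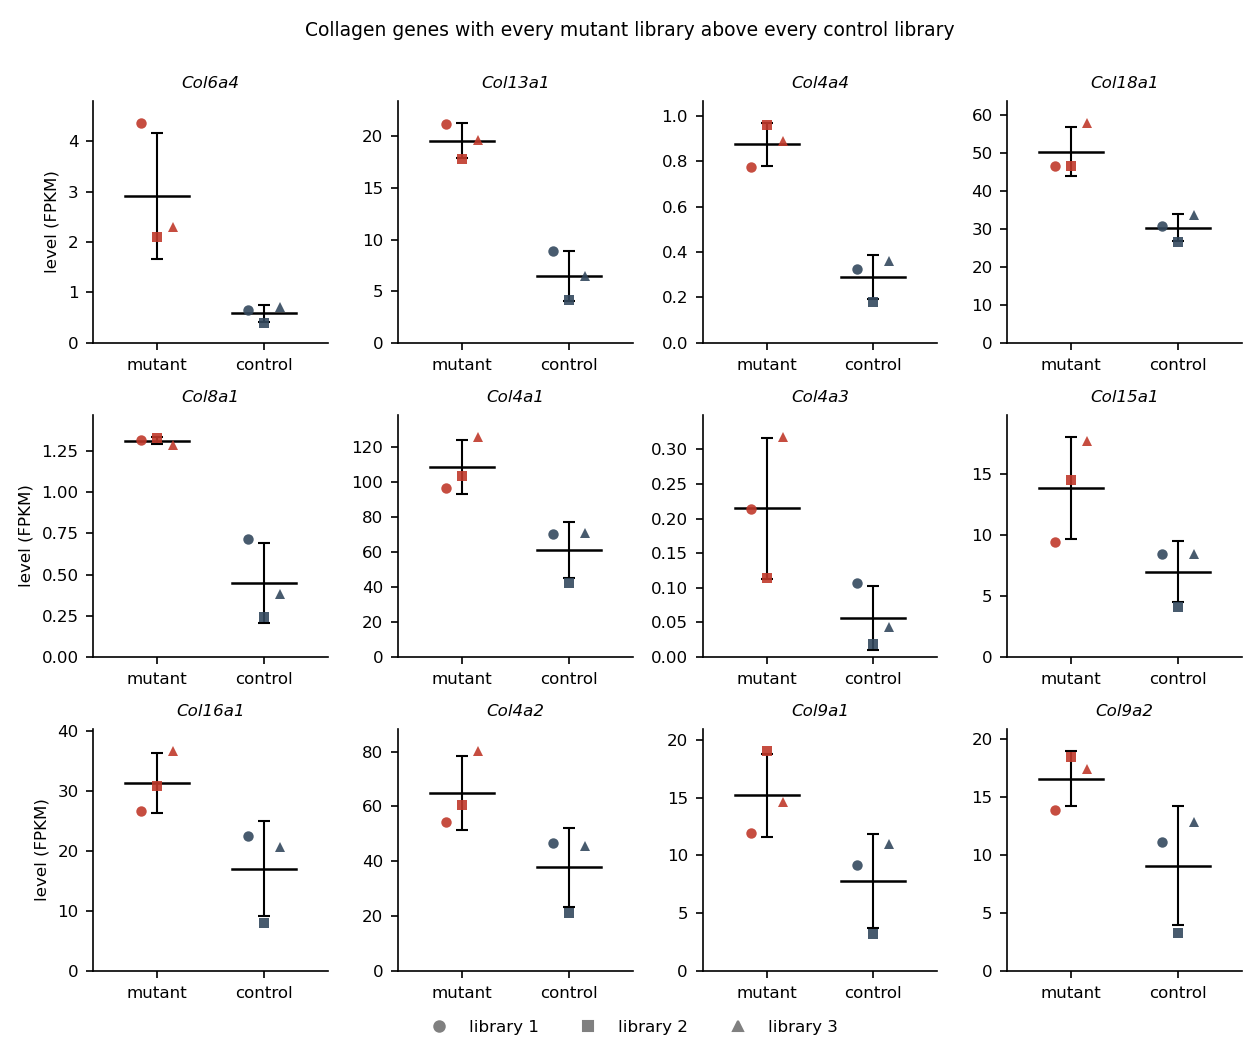
FPKM in each library of the 12 collagen genes with every mutant above every control, in order of limma's p-value, mutants left of controls, with group means as bars and SD as whiskers (n = 3). By the ratio of the lowest mutant to the highest control, Col6a4, Col13a1 and Col4a4 show the widest gaps. By the same ratio, Col4a3, Col9a2 and Col9a1 show the narrowest.

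The deposited results of the authors called many more collagen genes than limma did. The authors' deposited table had 22 of 41 higher at an adjusted p under 0.05, against 3.07% of its 15881 genes with an adjusted p, and 0 were lower, against 1.54%. By class the authors' deposited table called 2 of 8 fibrillar, 7 of 9 basement membrane, 3 of 6 cartilage and 10 of 18 other genes. Of the 22 genes that the authors' deposited table called, 12 had overlapping groups in the 6 libraries and 10 did not. For Col13a1 the authors' deposited table gave a log2 fold change of 1.96 with an adjusted p of 2.86e-15, for Col1a2 1.62 with 7.56e-09, and for Col1a1 2.07 with 0.168.

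The fold changes in the authors' deposited table did not follow the 6 deposited columns evenly. How the authors' model was set up cannot be read from the fit given here. Over 11990 genes, a least-squares fit of those fold changes on the 6 libraries gave weights of 0.29, 0.26 and 0.42 to mutants 1 to 3, and 0.01, -0.57 and -0.41 to controls 1 to 3. Control 1 thus had nearly no weight, and control 2, with the lowest collagen levels, had the most of the controls. The log2 fold change in the authors' deposited table was above that of limma in 40 of 41 collagen genes, by a median difference in size of 0.32. Against limma without control 1 that median difference was 0.12. That fit still called only 1 of 41 collagen genes higher, Col13a1, against 12 of 16652 genes. The authors' test was another one than limma, and the cause of the difference in calls was not tested.

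The proteins that modify, cut, bind and read collagens were described by 4 lists. None of their genes was called by limma with all libraries, against 0.307% of all genes. The genes tested were 21 for modification and folding, 13 for cleavage and cross-linking, 8 for receptors and 12 for fibril-associated proteins. Their median estimates were 0.28, 0.33, 0.26 and 0.61 on the log2 scale, against -0.01 over all genes, and 0.01, -0.04, 0.08 and 0.42 without control 2. The authors' deposited table called 7, 4, 0 and 8 of them higher, against 3.07% of all genes, and none lower, against 1.54%.

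Among the enzymes that hydroxylate prolines of the new chains, P4ha1 had 16.5, 19.9 and 21.0 FPKM in mutants, against 22.7, 10.2 and 19.8 FPKM in controls. P4ha2 and P4ha3 had 5.25 to 12.7 FPKM in mutants and 4.07 to 11.9 FPKM in controls, and all 3 overlapped. Bmp1, the protease that trims procollagen ends, had 30.9, 30.2 and 34.7 FPKM in mutants, against 37.7, 17.6 and 33.4 FPKM in controls. Its relatives Tll1 and Tll2 were at most 0.392 FPKM in every library. The receptors Ddr1, Ddr2 and Itga1 overlapped as well, with 1.36 to 32.1 FPKM in mutants and 1.24 to 33.2 FPKM in controls. Loxl4, a cross-linking enzyme named after its values were seen, had 2.24, 2.42 and 3.37 FPKM in mutants, against 6.67, 2.33 and 7.03 FPKM in controls. It fell in the fit without control 2, with a log2 fold change of -1.37 at an adjusted p of 0.0168 by limma, but not with all libraries, at an adjusted p of 0.54.

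The fibril-associated list, led by small proteoglycans that coat fibrils, had the largest median estimate of the 4. Lum had 39.0, 24.1 and 37.5 FPKM in mutants, against 17.7, 12.7 and 19.1 FPKM in controls. Fmod had 3.50, 2.66 and 5.15 FPKM in mutants, against 1.44, 1.36 and 1.88 FPKM in controls. In both, all mutants were above all controls, with log2 fold changes of 1.01 and 1.23 and adjusted p of 0.15 and 0.151 by limma. Dcn had 34.3, 18.5 and 40.9 FPKM in mutants, against 11.0, 13.1 and 20.3 FPKM in controls, and mutant 2 fell within the controls. Of the 12 genes on that list, 4 were higher in every mutant, against 7.57% of all genes, and 6 were higher at an unadjusted p under 0.05, against 5.26%. Control 2 was the lowest library in 7 of the 12, against 28.0% of all genes.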

How the data were processed

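RNA-seq of whole paired kidneys gave 6 libraries. The submitters' processing notes name build mm10 and, with no roles, DESeq2, HTSeq 0.6.1p2, STAR 2.6.0c and Trim Galore. The deposited table held FPKM made by the authors, a unit taken from the values because no header names it. Per the file headers it also held the authors' mean normalized signal (baseMean), log2 fold change with its error, test score (Wald statistic) and p-value with its adjusted form. Deposited FPKM times the mean signal over the mean FPKM gave size-factor normalized counts, and 100% of values were whole reads within 1e-06 of a read. No gene had under 10 reads in all.

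Genes that reached 10 normalized counts in at least 3 libraries were tested with limma 3.58.1 in R 4.3.3 on log2(normalized count + 1), with a trend and no covariate, two-sided. Fold changes on that scale understate changes of low genes. The test was run first on simulated data. No count model was fitted. Groups follow the labels, and p-values measure the spread between these libraries. A count of members lying apart in 3 against 3 libraries has no test of its own, since an exact test there cannot go below 0.1.

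All 42 genes are accounted for. Values in every library are given for the 2 most abundant of each class, up to 6 called per class (by limma or in the authors' deposited table), the main chains of types I to VI, and the first 3 genes of each other list. Other genes named include markers and genes beside or overlapping the collagen genes. The members and lists were chosen with earlier results of these data known. Positions are GENCODE M21 (GRCm38, the same assembly as mm10). Alternatives were other pseudocounts, filters and scalings, library weights, a replicate block and leaving out each library.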

Additional observations from a re-analysis of the deposited data

How the results depend on the processing

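Over all genes 52 were called, 462 with library weights, 17 with the replicate block, and 6 to 149 when 1 library was left out, the most without control 2. Of the collagens, 2 were called higher, 1 with upper-quartile scaling (Col6a4; the adjusted p of Col13a1 was 0.0504), 0 on log2(FPKM + 1), 7 with library weights (Col4a1, Col4a4, Col8a1, Col15a1 and Col18a1 besides the same 2), 0 with the replicate block (adjusted p of 0.054 for both), and 0 to 3 when 1 library was left out. None was called lower, except 1 without control 2 (0 to 1 over the libraries left out). The 17 at an unadjusted p under 0.05 ranged from 8 to 21 when 1 library was left out, with the fewest without mutants 3 and 2. The pseudocounts of 0.5 and 5 and both filters kept the same 2 calls. The sum ratios ranged over the libraries left out from 1.52 to 2.59 (fibrillar), 1.43 to 1.81 (basement membrane), 1.12 to 1.85 (cartilage) and 1.08 to 1.61 (others). Deviations from the group means correlated at 0.0008, -0.098 and 0.309 for replicate numbers 1, 2 and 3. The last was the highest of all pairs of a mutant and a control, while mutant 1 correlated best with control 2 (0.234). Deviations of 3 libraries from their own mean are tied to each other, so these values cannot decide whether the replicate numbers pair the libraries. No called collagen gene changed direction; 6 uncalled estimates did without control 2, 3 with library weights, and 1 each without control 1, control 3, mutant 1 or mutant 3. The causes of these shifts were not tested. With 24 reads, Col19a1 was limited by depth, and Col4a3 in control 2 rested on 4 reads.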
